A study of Mus musculus with 6 samples.

Results

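The 10 genes described here encode the T cell receptor (TCR) complex and its coreceptors: Cd3e, Cd3d, Cd3g and Cd247 (the CD3 and zeta signaling chains), Trac and Trbc2 (constant parts of the TCR alpha and beta chains), Cd4, Cd8a and Cd8b1 (the coreceptors) and Lck (the coreceptor-bound kinase). They were taken by symbol, and all 10 had a row among the 31130 genes listed for each tumor. RNA was sequenced from 3 lung tumors of the lung cancer alone (LC) model and 3 of the lung cancer with interstitial pneumonia (IP + LC) model. All mice were wild type, and the study's methods describe female C57BL/6 animals aged 6 to 8 weeks. The IP + LC mice received bleomycin, which injures lung tissue and leaves fibrosis, at 2.0 mg/kg by the oropharyngeal route on day 0, and the LC mice were given saline in place of it. On day 14, cells of the EGFP-carrying mouse line Lewis lung carcinoma were injected into the left lung of both groups, and the tumors were collected on day 21. The tissue was not sorted, so every value below is a sum over cancer cells, lung cells and infiltrating leukocytes, and a smaller number of T cells cannot be told apart from less RNA per T cell.

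The alpha and beta chains of the TCR recognize a peptide held by an MHC molecule and have almost no signaling tail of their own. The signal is passed on by the CD3 gamma, delta, epsilon and zeta chains, whose tyrosine motifs are phosphorylated by Lck. Lck is brought to the receptor by CD4, which binds MHC class II on helper T cells, or by CD8, which binds MHC class I on cytotoxic T cells and is an alpha-beta or alpha-alpha dimer. Zap70 then docks on the phosphorylated chains and starts the adaptor cascade through Lat and Lcp2. In lung tumors these genes are commonly read as markers of infiltrating T cells, although NK cells also use Cd247 and Lck and some dendritic cells carry Cd8a or Cd4.

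Values are counts of unique molecular identifiers (UMIs), random tags that let copies of 1 captured mRNA molecule be counted once. The libraries capture mRNA at the poly(A) tail and read 81 nucleotides of insert, so which bases near the end of a transcript are unique decides whether a gene can be told apart from its copies. On GRCm38, Cd3g (ENSMUSG00000002033, chr9:44969572-44980431, minus strand), Cd3d (ENSMUSG00000032094, chr9:44981786-44987339, plus strand) and Cd3e (ENSMUSG00000032093, chr9:44998740-45009627, minus strand) lie side by side, with 1354 bases between the starts of Cd3g and Cd3d and 11400 bases between Cd3d and Cd3e. Cd8b1 (ENSMUSG00000053044, chr6:71322788-71337494, plus strand) lies 35932 bases from Cd8a (ENSMUSG00000053977, chr6:71373427-71379173, plus strand). Cd4 (ENSMUSG00000023274) is at chr6:124864692-124888221 on the minus strand, Cd247 (ENSMUSG00000005763) at chr1:165788681-165877277 on the plus strand, Trac (ENSMUSG00000076928) at chr14:54220521-54224206 on the plus strand and Lck (ENSMUSG00000000409) at chr4:129548344-129573641 on the minus strand. Trbc1 (ENSMUSG00000076490, chr6:41538218-41539881) and Trbc2 (ENSMUSG00000076498, chr6:41546730-41548352), both on the plus strand with 6848 bases between them, are alternative constant genes of the beta chain, and a given T cell clone uses 1 of them.

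The coding parts of Trbc1 and Trbc2 were 95.6% identical, with 23 differences over 518 aligned bases and an identical run of 259 bases, which is longer than the insert read. A coding stretch that separates them is the exonic sequence from base 400 to base 489 of each transcript, shown 5′ to 3′ because it holds 14 of the 23 differences. Capitals mark the bases that differ.
Trbc1: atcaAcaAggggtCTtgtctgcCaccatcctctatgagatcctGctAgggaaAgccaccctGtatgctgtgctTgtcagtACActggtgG
Trbc2: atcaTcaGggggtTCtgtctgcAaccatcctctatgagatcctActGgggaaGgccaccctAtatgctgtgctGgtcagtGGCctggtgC
After the stop of the coding part, 107 of 220 aligned bases were identical, so reads from the last part of the transcripts can be assigned, while those from the shared 521 bases, 75.3% of the Trbc2 transcript, can be ambiguous. Counts of Cd247 are uncertain as well, since 60.3% of its exonic bases are overlapped by Gm16565 on the same strand and Pou2f1 on the opposite strand and the use of the strand in counting is not given in the sources used here. Of the Cd8b1 transcript, 10.2% matched other genes at 95% identity or more over at least 81 bases, including its last bases, and the figures for Cd3e and Cd3d were 9.3% and 6.56%. No such match was found for Trac, Cd3g, Cd4, Cd8a or Lck.

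The tumors gave 592733 to 1631066 UMIs each, and the shallowest was LC replicate 1, since the other tumors gave 1336919 or more. LC replicate 1 also stood apart from its group in the make-up of its counts. Over 9936 to 10732 tested genes with at least 20 UMIs in the pair compared, its chi-square statistic per degree of freedom was 13.5 against LC replicate 2 and 18 against LC replicate 3, where the other pairs within a group gave 2.68 to 6.47. Relative to LC replicates 2 and 3 it held more of the short transcripts and less of the long ones, with a median log2 difference of 0.33 in the quartile of shortest transcripts and -0.54 in that of the longest. Fold changes of the 4 members that were clearly lower in this tumor (Cd3e, Cd8a, Trac and Trbc2) are given with and without it.

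Expression of the TCR complex and coreceptor genes was not found to differ between the IP + LC and LC groups. Of the 9 members with enough UMIs to be tested, 0 passed an adjusted p of 0.1 in edgeR's quasi-likelihood test and 0 had an unadjusted p below 0.05. Of the 11240 genes in that test, 36.4% were called (16.8% higher and 19.6% lower in the IP + LC group) and 39.7% had an unadjusted p below 0.05. DESeq2 called 0 of the 10 members and 3215 of the 13449 genes it tested. The range of the members overlapped between the groups for all 9, although 43.1% of tested genes had no overlap. Their log2 fold changes (IP + LC against LC) ran from -0.33 for Cd8b1 to 1.30 for Cd8a with a median of 0.25, beside a median of 0.02 over all tested genes, and their adjusted p-values ran from 0.171 to 0.857. The count of called members was also 0 without LC replicate 1, where 6691 of 11748 tested genes were called. It was 1 (Cd8a) without IP + LC replicate 1, where 2660 of 11768 tested genes were called, and without the filter on low counts (4820 of 29423).

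The depth limits what these 9 tests can show. The 95% interval of the log2 fold change reached past a doubling or a halving for 7 of the 9 members, and only Trbc2 (-0.67 to 0.51) and Lck (-0.56 to 0.78) stayed within those bounds. Cd4, with 5 to 14 UMIs per tumor, had too few UMIs to be tested, Cd247 passed with only 5 to 16 UMIs per tumor, and Cd3e and Cd8a had 0 UMIs in LC replicate 1. A level of 3 UMIs, below which a gene cannot be told from absent, equaled 5.17 CPM (UMI counts scaled to the size of the library) in LC replicate 1 and 1.75 to 2.54 CPM in the other tumors. The labels do not state that the numbered tumors came from separate mice, so the p-values measure the spread between these samples.

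**Figure D1:**
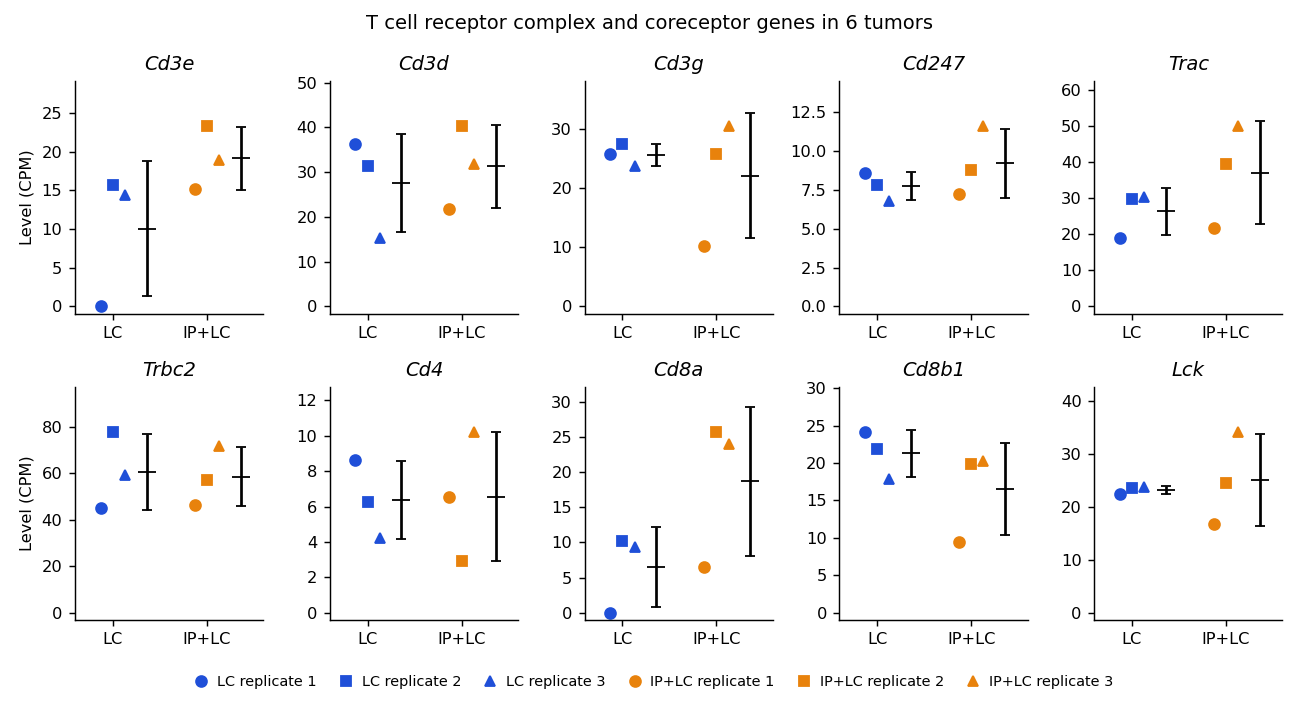
Level of each of the 10 genes in the 3 LC tumors (blue) and the 3 IP + LC tumors (orange) in CPM after TMM scaling, with bars for the mean and the SD over 3 tumors and an axis of its own for each gene. The groups overlap in every panel, and LC replicate 1 lies at 0 for Cd3e and Cd8a.

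Cd3e, the CD3 epsilon chain present in every receptor complex, was counted at 0, 15.7 and 14.4 CPM in LC replicates 1 to 3 and at 15.2, 23.3 and 18.9 CPM in IP + LC replicates 1 to 3. All IP + LC tumors except replicate 1 lay above all LC tumors, and IP + LC replicate 1 lay below LC replicate 2. The log2 fold change was 0.73 (SE 0.54, adjusted p = 0.345), and without LC replicate 1 it was 0.37 (SE 0.31, adjusted p = 0.336). At the level of LC replicates 2 and 3, which held 37 UMIs of Cd3e together, LC replicate 1 would have held 8.7 UMIs in place of 0. The other CD3 chains of the same locus were not low in that tumor.

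Cd3d, the delta chain, was at 36.2, 31.3 and 15.3 CPM in LC tumors and at 21.8, 40.3 and 31.9 CPM in IP + LC tumors. Here LC replicate 1 was the highest of its group, and LC tumors averaged 27.6 ± 10.9 CPM where IP + LC tumors averaged 31.3 ± 9.28 CPM (SD, n = 3 each). Cd3g, the gamma chain, was at 25.8, 27.4 and 23.7 CPM in LC tumors and at 10.2, 25.7 and 30.5 CPM in IP + LC tumors. The LC tumors lay close together for Cd3g, and the log2 fold change of -0.21 (SE 0.37, adjusted p = 0.713) became 0.15 without the low IP + LC replicate 1. For Cd3d the log2 fold change was 0.25 (SE 0.35, adjusted p = 0.639), and it became -0.09 without LC replicate 3. The summed level of the 3 CD3 chains averaged 63.3 ± 10.6 CPM over LC tumors and 72.6 ± 22.4 CPM over IP + LC tumors (SD, n = 3 each), with IP + LC replicate 1 the lowest of all tumors at 47.1 CPM.

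Cd247, the zeta chain, was at 8.61, 7.83 and 6.78 CPM in LC tumors and at 7.25, 8.76 and 11.6 CPM in IP + LC tumors. Only IP + LC replicates 2 and 3 lay above the LC range, and the log2 fold change was 0.27 (SE 0.35, adjusted p = 0.601).

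Trac, the constant gene of the alpha chain, was at 18.9, 29.8 and 30.5 CPM in LC tumors and at 21.8, 39.7 and 50.1 CPM in IP + LC tumors. IP + LC replicates 2 and 3 were the highest of all tumors, and IP + LC replicate 1 lay inside the LC range. The log2 fold change was 0.45 (SE 0.33, adjusted p = 0.35), while it was 0.32 (SE 0.29, adjusted p = 0.384) without LC replicate 1, 0.74 (SE 0.28, adjusted p = 0.12) without IP + LC replicate 1 and 0.21 (adjusted p = 0.707) without IP + LC replicate 3. Trbc2, a constant gene of the beta chain, was at 44.8, 77.6 and 59.3 CPM in LC tumors and at 46.4, 57.2 and 71.9 CPM in IP + LC tumors. The tumors of both groups were interleaved for Trbc2, whose log2 fold change of -0.08 (SE 0.26, adjusted p = 0.857) changed sign under 4 of the other settings tried and was -0.22 (SE 0.20, adjusted p = 0.385) without LC replicate 1. Trbc1, the alternative beta constant gene, did not pass the test either (log2 fold change -0.02, SE 0.39, adjusted p = 0.983).

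Within each tumor, Trbc1 made up 33.3%, 36.5% and 36.9% of the UMIs of Trbc1 and Trbc2 over LC tumors and 25.6%, 43.4% and 38.1% over IP + LC tumors, with means of 35.6% ± 1.98 and 35.7% ± 9.13 (SD, n = 3). Trac made up 22%, 19.6% and 24.5% of the UMIs of Trac, Trbc1 and Trbc2 in LC tumors and 25.9%, 28.2% and 30.1% in IP + LC tumors. Each IP + LC tumor thus lay above each LC tumor in the share of Trac, by 6.04 percentage points on average, while the share of Trbc1 overlapped. The share of Trac was chosen after the values were seen, and 43.1% of all tested genes also had no overlap between the groups in their level.

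Among the coreceptors, Cd8a, which forms both kinds of CD8 dimer, had the largest log2 fold change of the 9 tested members. It was at 0, 10.2 and 9.32 CPM in LC tumors (0, 13 and 11 UMIs) and at 6.53, 25.7 and 24 CPM in IP + LC tumors (9, 44 and 33 UMIs). IP + LC replicates 2 and 3 lay above all LC tumors, and IP + LC replicate 1 lay below LC replicates 2 and 3. The log2 fold change was 1.30 (SE 0.65, 95% interval -0.17 to 2.77, unadjusted p = 0.0768, adjusted p = 0.171). Without LC replicate 1 it was 0.97 (SE 0.48, adjusted p = 0.107), and without IP + LC replicate 1 it was 1.73 (SE 0.58, adjusted p = 0.0904), which passed the limit of 0.1. It also passed without the filter on low counts (adjusted p = 0.00674), while over all settings tried its adjusted p-value ran from 0.00674 to 0.423. LC replicate 1 would have held 5.7 UMIs of Cd8a at the level of LC replicates 2 and 3.

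Cd8b1, the beta chain of the CD8 alpha-beta dimer of conventional cytotoxic T cells, was at 24.1, 21.9 and 17.8 CPM in LC tumors and at 9.43, 19.8 and 20.3 CPM in IP + LC tumors. LC replicate 1, in which Cd8a was at 0, had the highest Cd8b1 level of all tumors, and IP + LC replicate 1 had the lowest. The log2 fold change was -0.33 (SE 0.34, adjusted p = 0.502). Cd4, the coreceptor of helper and regulatory T cells, was at 8.61, 6.27 and 4.24 CPM in LC tumors (5, 8 and 5 UMIs) and at 6.53, 2.92 and 10.2 CPM in IP + LC tumors (9, 5 and 14 UMIs). The highest and the lowest Cd4 level were both in the IP + LC group, and the means of log2(CPM + 4) differed by -0.02 (exact two-sided permutation test, p = 1, where 3 against 3 tumors allow no p below 0.1). Fitted without the filter on low counts, Cd4 had a log2 fold change of 0.19 (SE 0.61, adjusted p = 0.887), so a difference was not detectable at this depth.

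Cd8a and Cd8b1 together made up 73.7%, 83.7% and 86.5% of the coreceptor UMIs (Cd4, Cd8a and Cd8b1) in the LC tumors and 71%, 94% and 81.3% in the IP + LC tumors. The lowest and the highest share were both in IP + LC tumors, and the means of 81.3% ± 6.73 and 82.1% ± 11.5 (SD, n = 3) differed by 0.811 percentage points, less than the spread within either group. The counts behind these shares were small, and the exact (Clopper-Pearson) 95% intervals, which cover counting error only, ran from 48.8% to 90.9% for the 19 UMIs of LC replicate 1 and from 86.5% to 98% for the 83 UMIs of IP + LC replicate 2.

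The make-up of the CD8 UMIs did not overlap between the groups. Cd8a accounted for 0% (95% interval 0% to 23.2%), 31.7% (18.1% to 48.1%) and 34.4% (18.6% to 53.2%) of the UMIs of Cd8a and Cd8b1 in LC tumors. In IP + LC tumors it accounted for 40.9% (20.7% to 63.6%), 56.4% (44.7% to 67.6%) and 54.1% (40.8% to 66.9%). All IP + LC tumors lay above all LC tumors, with means of 50.5% ± 8.36 and 22% ± 19.1 (SD, n = 3), and the difference of 28.4 percentage points was 25.3 after thinning to equal depth and 17.4 without LC replicate 1. This share was chosen after the values of both genes were seen, and it was not tested. Of all tested genes, 43.1% also had no overlap between the groups in their level. The nearest tumors across the groups rested on 11 of 32 UMIs (LC replicate 3) and 9 of 22 UMIs (IP + LC replicate 1). The intervals of IP + LC replicates 2 and 3 lay above that of LC replicate 1, and the other pairs of tumors across the groups had intervals that overlapped.

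The same measure among the CD3 chains overlapped. Cd3e accounted for 0%, 21.1% and 27% of the UMIs of Cd3e, Cd3d and Cd3g in LC tumors and for 32.3%, 26.1% and 23.2% in IP + LC tumors, and the exact 95% interval for the 0 of 36 UMIs in LC replicate 1 reached 9.74%. Apart from LC replicate 1, the tumors of both groups lay between 21.1% and 32.3%.

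**Figure D2:**
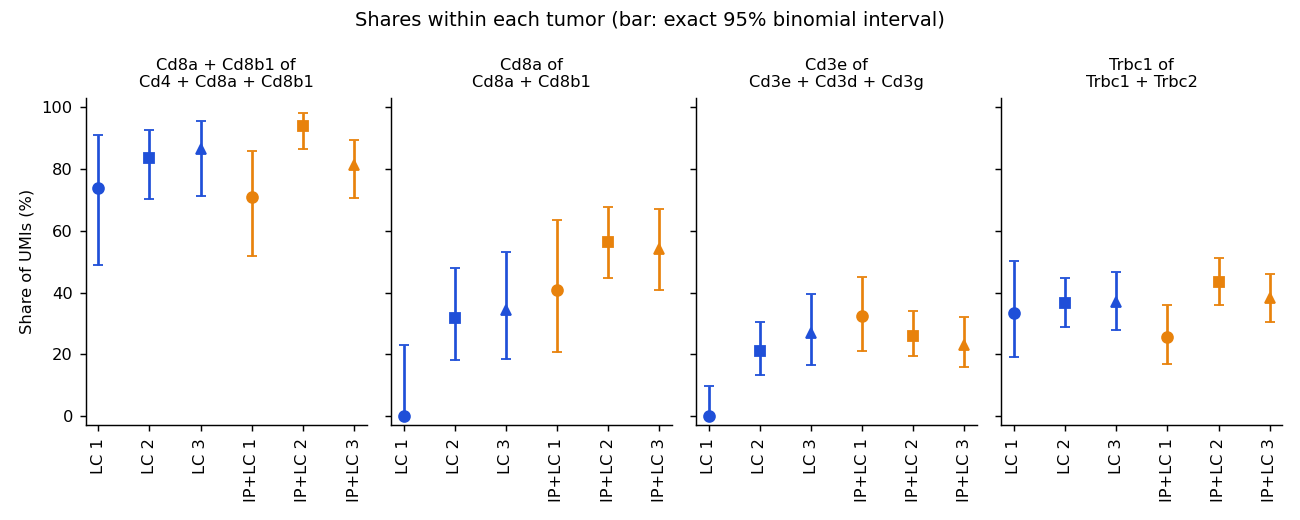
Shares of UMIs within each tumor in percent, with exact 95% binomial intervals as bars, for CD8 among the coreceptors, Cd8a within CD8, Cd3e within CD3 and Trbc1 within the beta constant genes. Cd8a within CD8 is the only one of these 4 shares in which every IP + LC tumor (40.9% or more) lies above every LC tumor (34.4% or less).

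Lck, the kinase that phosphorylates the CD3 and zeta chains, was at 22.4, 23.5 and 23.7 CPM in LC tumors and at 16.7, 24.5 and 34.1 CPM in IP + LC tumors. The LC tumors agreed within an SD of 0.719 CPM, the IP + LC tumors lay on both sides of them, and the log2 fold change was 0.10 (SE 0.30, adjusted p = 0.822).

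Within the IP + LC group, most members ranked the tumors alike. IP + LC replicate 1 had the lowest value of its group in 9 of the 10 genes, and IP + LC replicate 3 had the highest in 7. Summed over the 10 genes, the level was 189, 251 and 205 CPM in LC tumors and 162, 268 and 304 CPM in IP + LC tumors, or 215 ± 32.3 and 244 ± 73.8 (SD, n = 3). Both the lowest and the highest sum were thus found in IP + LC tumors. In the LC group no such order was seen, since LC replicate 1 was the lowest in 5 genes and the highest in 4. Relative to Ptprc, which encodes CD45 on all leukocytes, the 10 genes gave 153, 156 and 93.4 UMIs per 100 UMIs of Ptprc in LC tumors and 82.9, 93.7 and 108 in IP + LC tumors, and the groups overlapped. Ptprc itself averaged 168 ± 48.1 CPM over LC tumors and 254 ± 51.1 CPM over IP + LC tumors (SD, n = 3 each, log2 fold change 0.59, SE 0.26, adjusted p = 0.132), and without LC replicate 1 it passed (log2 fold change 0.43, SE 0.18, adjusted p = 0.0609).

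Over the 6 tumors, the members did not all follow 1 pattern. Pearson correlations of log2(CPM + 4) were 0.95 between Cd3g and Cd8b1 and 0.84 between Cd3g and Lck, but 0.45 between Cd3d and Cd3g and 0.20 between Cd3d and Trac. Pairs with Cd3e or Cd8a are left out because both were at 0 in LC replicate 1, and these values describe 6 libraries in which the genes share depth and scaling. Among 7552 tested genes with at least 10 UMIs in every tumor, those most like the summed CD3 chains were Ifi213 (r = 0.98), Maip1 (0.97), Sirt7 (0.93), Ttc17 (0.93), Pik3cg (0.92), Thap4 (0.91), Sms (0.90), Pik3c3 (0.90), Chuk (0.89) and Cant1 (0.88), each over 6 tumors.

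**Figure D3:**
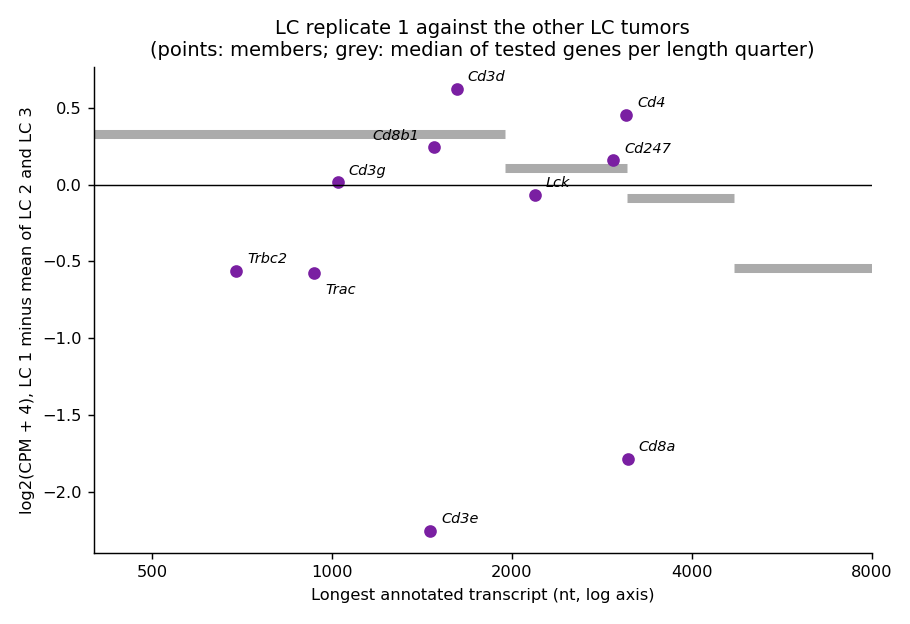
Difference of log2(CPM + 4) between LC replicate 1 and the mean of LC replicates 2 and 3 for each member, against the length of its longest annotated transcript (log axis, with the group of longest transcripts cut off at the right edge), with the median of all tested genes in each length quartile in grey. Cd3e (-2.25) and Cd8a (-1.78) lie far below the grey line of their length, and the other 8 members lie between -0.57 and 0.62.

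The 0 of Cd3e and of Cd8a in LC replicate 1 was set beside the other genes of that tumor. Of 1990 tested genes with 20 to 40 UMIs over LC replicates 2 and 3, which includes both members, 3.92% were at 0 in LC replicate 1, and of all 11240 tested genes 1.46%. By transcript length, Cd3e (1462 nucleotides) belongs to the quartile of shortest transcripts, in which the median difference of LC replicate 1 was 0.33, and Cd8a (3128 nucleotides) to the third, with -0.09. The part of depth or of RNA quality in these zeros was not tested.

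Some of the genes that act directly below the receptor did pass the test. Of 28 genes of proximal TCR signaling, 22 were tested, 7 of them (31.8%) rose, 2 fell and 13 did not pass, with a median log2 fold change of 0.29, against 16.8% higher and 19.6% lower over all tested genes. Without LC replicate 1 the list had 10 higher and 4 lower calls, where 28.3% of all tested genes were higher. It had 4 higher calls without LC replicate 2, LC replicate 3, IP + LC replicate 2 or IP + LC replicate 3, where 7.61% to 11.2% of all tested genes were higher. Fyb, an adaptor that links the receptor to integrins, rose from 17.2, 45.4 and 33 CPM in LC tumors to 89.2, 107 and 112 CPM in IP + LC tumors (log2 fold change 1.62, SE 0.30, adjusted p = 0.00539). Ubash3b, a phosphatase that dampens the signal, rose from 21.1 ± 9.34 to 67 ± 9.75 CPM (SD, n = 3 each, log2 fold change 1.58, SE 0.30, adjusted p = 0.00602). Lcp2, the SLP-76 adaptor, rose from 23.1 ± 5.09 to 59.6 ± 8.8 CPM (log2 fold change 1.39, SE 0.25, adjusted p = 0.00468). These 3 genes had no overlap between the groups, like 43.1% of all tested genes, and they are also expressed in myeloid cells. Pag1, a membrane adaptor that recruits the Lck inhibitor Csk, fell by 1.12 on the log2 scale (SE 0.29, adjusted p = 0.0212), and Nck1, an adaptor of the actin skeleton, fell by 0.97 (SE 0.21, adjusted p = 0.0112).

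Zap70 and Lat, which are closer to T cells in their expression, did not pass in the fit of all 6 tumors. Zap70 averaged 7.94 ± 3.42 CPM over LC tumors and 8.88 ± 5.27 CPM over IP + LC tumors (log2 fold change 0.20, SE 0.56, adjusted p = 0.826). Lat averaged 15.9 ± 3.71 and 23.1 ± 7.22 CPM (log2 fold change 0.60, SE 0.33, adjusted p = 0.21), and it passed without LC replicate 1 (log2 fold change 0.73, SE 0.33, adjusted p = 0.0835).

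**Figure D4:**
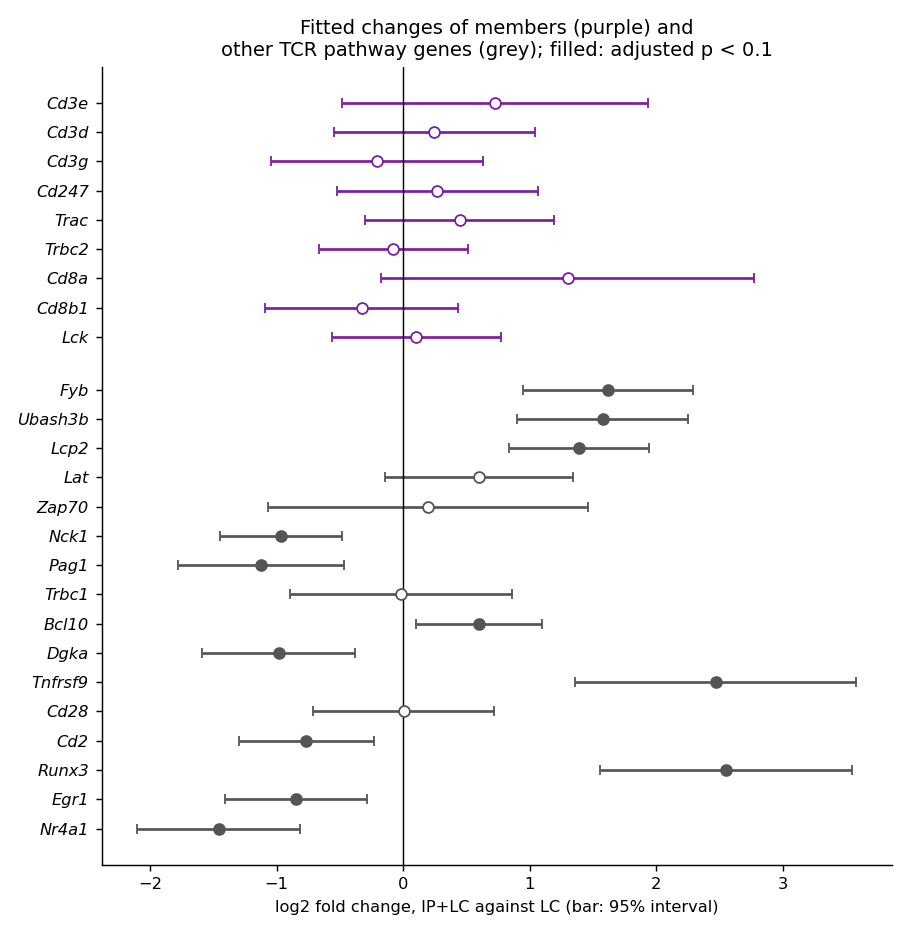
Log2 fold change (IP + LC against LC) of the 9 tested members (purple) and of the named genes of the TCR pathway (grey), with 95% intervals as bars and filled points for an adjusted p below 0.1. The intervals of all 9 members include 0, while those of Fyb, Ubash3b and Lcp2 lie above it.

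Further along the pathway, 2 of the 17 genes of distal TCR signaling were called, where 36.4% of all tested genes were. All 17 were tested. Bcl10, a scaffold on the way to NF-kB, rose (log2 fold change 0.60, SE 0.22, adjusted p = 0.072), Dgka, a diacylglycerol kinase that limits Ras activation, fell by 0.98 on the log2 scale (SE 0.27, adjusted p = 0.0259), and 15 did not pass. The number called was 6 (1 higher, 5 lower) without LC replicate 1, where 6691 of 11748 tested genes were called. It was 0 without LC replicate 2 (2585 of 11530 tested genes called) or without IP + LC replicate 2 (2265 of 11787). Of 12 genes of costimulation and the T cell surface, 7 were tested. Tnfrsf9 (4-1BB), a costimulatory receptor induced on activated T cells, rose from 0, 7 and 6 UMIs in LC tumors to 25, 51 and 31 UMIs in IP + LC tumors (log2 fold change 2.47, SE 0.49, adjusted p = 0.0075). Cd2, an adhesion receptor of T and NK cells, fell by 0.77 on the log2 scale (SE 0.24, adjusted p = 0.0401). Cd28, the costimulatory receptor that accompanies the TCR, averaged 8.28 ± 0.57 CPM over LC tumors and 8.24 ± 0.447 CPM over IP + LC tumors (log2 fold change 0.004, adjusted p = 0.995).

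Of 12 T cell transcription factors, 10 were tested, and in the fit of all 6 tumors only Runx3, a factor of the cytotoxic lineage that is also expressed in NK cells and macrophages, was called. Without LC replicate 1, 4 others were called lower as well. Of all tested genes, 36.4% were called in the fit of all 6 tumors, and 3367 of 11748 were lower without LC replicate 1. Runx3 rose from 3, 5 and 9 UMIs in LC tumors to 28, 81 and 43 UMIs in IP + LC tumors (log2 fold change 2.55, SE 0.44, adjusted p = 0.00424). Of the 10 genes that TCR signals induce, 7 were tested, 5 of them did not pass, and the immediate early genes Nr4a1 and Egr1, which many cell types induce, fell by 1.46 (SE 0.28, adjusted p = 0.0068) and 0.85 (SE 0.25, adjusted p = 0.0338) on the log2 scale. Tnfrsf9 and Runx3 passed the filter on low counts through the IP + LC tumors, in which they are high, and both were also called in the fit without that filter (log2 fold changes 2.58 and 2.67). The median log2 fold change was 0.02 for distal signaling, 0.004 for costimulation and surface genes, -0.20 for transcription factors and -0.07 for TCR-induced genes. Calls of Bcl10, Dgka, Cd2 and Egr1 were lost under some of the other settings. Of the 6 other TCR constant genes, 5 had a row and only Trbc1 was tested.

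Summed levels of several marker lists did not overlap between the groups, while that of the T cell receptor genes did. Over all tested genes, 19.6% were lower in the IP + LC group and 16.8% were higher. Of 6 B cell markers 5 fell, and 3 when LC replicate 2, IP + LC replicate 1 or IP + LC replicate 2 was left out, with a summed level of 220 to 305 CPM in LC tumors and 39.9 to 154 CPM in IP + LC tumors. Of 5 genes listed for naive T cells 4 fell, from 432 to 699 CPM in LC tumors to 204 to 309 CPM in IP + LC tumors, and 2 fell without IP + LC replicate 1. The naive list is dominated by Klf2 and S1pr1, which endothelial cells also express, and all 4 endothelial markers fell (789 to 1440 CPM in LC tumors, 299 to 365 CPM in IP + LC tumors), and the part of each cell type in that list was not tested. The 5 lung epithelium markers also fell (74100 to 80700 CPM in LC tumors, 8150 to 14900 CPM in IP + LC tumors), as did 3 of 3 cardiac muscle and 3 of 4 neutrophil markers. The cardiac muscle count was 2 without LC replicate 2, IP + LC replicate 1 or IP + LC replicate 2. All 4 proliferation genes rose, from 77.6 to 212 CPM in LC tumors to 736 to 858 CPM in IP + LC tumors. When any 1 tumor other than LC replicate 1 was left out, 3 of them were called.

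Cell types that share members with T cells were also measured. The 7 NK cell markers summed to 80.9 to 129 CPM in LC tumors and 86.4 to 112 CPM in IP + LC tumors, with 1 of 4 tested genes lower. That count was 3 of 6 without LC replicate 1 and 0 without LC replicate 3 or any 1 of the IP + LC tumors. The gene called lower over all 6 tumors was Klrb1c (8, 11 and 15 UMIs in LC tumors, 8, 10 and 8 in IP + LC tumors). It passed the filter on low counts through the LC tumors, in which it is high. Its call was lost without that filter, so no direction is read from it. The 6 markers of cDC1 and plasmacytoid dendritic cells, which can carry Cd8a or Cd4, summed to 293 to 604 CPM in LC tumors and 595 to 951 CPM in IP + LC tumors. That sum is mostly Bst2, which many cells express, and of the defining cDC1 genes Xcr1 overlapped between the groups (10.3, 1.57 and 4.24 CPM in LC tumors, 5.08, 7.59 and 6.54 CPM in IP + LC tumors). Clec9a was at 15.5, 26.6 and 15.3 CPM in LC tumors and at 9.43, 3.5 and 15.2 CPM in IP + LC tumors, without overlap but by a narrow margin (log2 fold change -1.10, SE 0.49, adjusted p = 0.124), and it passed without LC replicate 1 (log2 fold change -1.20, SE 0.45, adjusted p = 0.0357). Macrophage markers, whose sum was 12800 to 14600 CPM in LC tumors and 6830 to 8300 CPM in IP + LC tumors, had 2 genes higher and 1 lower of 6. Most of that sum is Lyz2, the lower gene (log2 fold change -1.11, SE 0.25, adjusted p = 0.0127), the median log2 fold change of the list was 0.64, and the 2 higher calls were 4 without LC replicate 1 and 0 when any 1 of the other tumors was left out. For regulatory T cells 1 of 5 genes was tested and did not pass, and without LC replicate 1, LC replicate 3 or IP + LC replicate 1 the count was 2 higher of 4 tested, where the added genes passed the filter through the IP + LC tumors in which they are high, so no direction is read from that count. For ILC2 1 of 2 tested genes rose, Areg (9, 12 and 4 UMIs in LC tumors, 50, 66 and 43 in IP + LC tumors). The other, Rora, did not pass (log2 fold change -1.03, SE 0.51, adjusted p = 0.166) and was lower without LC replicate 1 (-1.42, SE 0.22, adjusted p = 8.09e-05). Il13 and Il5 had at most 1 UMI in any tumor, so no direction is read for ILC2. For gamma-delta T cells 1 of 6 genes with a row was tested, Sox13, which was lower and is not the defining gene. Trdc, which defines these cells, had 0, 2 and 1 UMIs in LC tumors and 5, 8 and 5 in IP + LC tumors, too few to be tested, and Il17a was at 0 in all 6 tumors. The part of any of these cells in the levels of the 10 members was not tested.

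**Figure D5:**
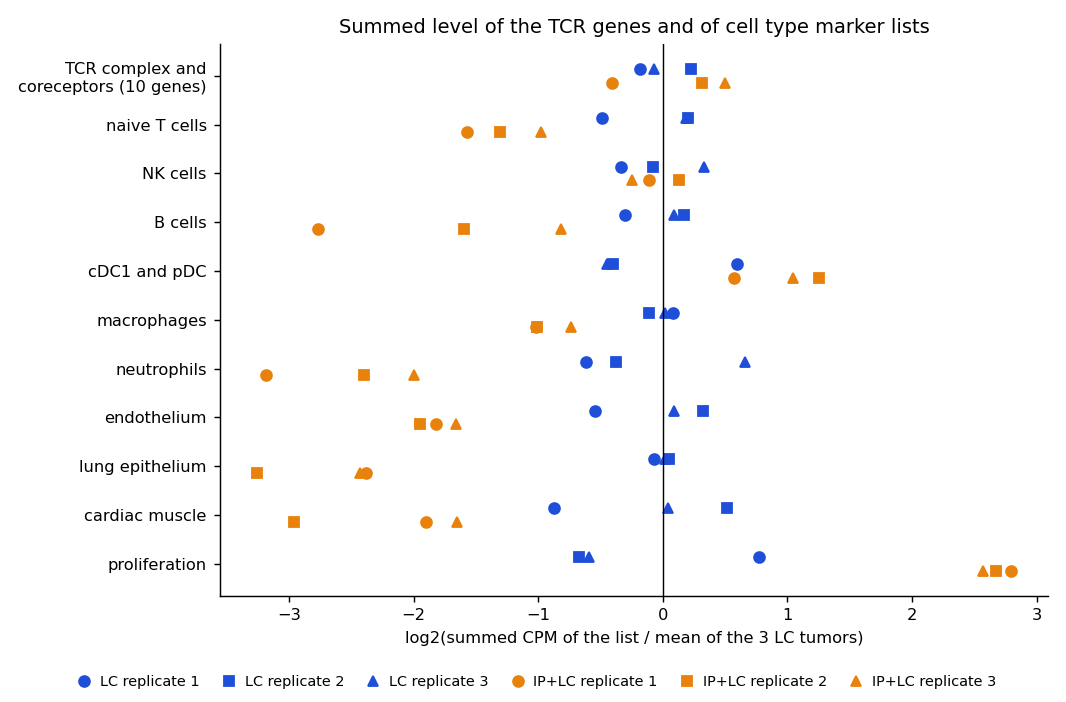
Summed level of the 10 members and of 10 marker lists in each tumor, as log2 of the ratio to the mean of the 3 LC tumors, with LC tumors in blue and IP + LC tumors in orange. The members stay near 0 with the groups overlapping, as do the NK cell markers, while B cell, endothelial, epithelial and proliferation markers separate the groups.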

How the data were processed

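Tumor RNA was made into libraries by bulk RNA barcoding and sequencing. The authors extracted UMIs with UMI-tools 1.1.1, trimmed reads with Trim Galore 0.6.7, aligned them to GRCm38 with HISAT2 2.2.1, assigned them with featureCounts 2.0.1 and deposited raw UMI counts per gene, 1 table per tumor. The labels also list DESeq2, and the annotation release is not given in the sources used here.

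Fold changes, standard errors and Benjamini-Hochberg adjusted p-values came from the quasi-likelihood test of edgeR 4.0.16 in R 4.3.3, fitted on all 6 tumors without a block after filterByExpr (minimum count 10) and TMM scaling, with a limit of 0.1. CPM values use the scaled library sizes. Overlaps, transcript lengths, matches between genes and the Trbc sequences came from GENCODE M21 (GRCm38), which held all 31130 identifiers. Named are all members, up to 3 genes called higher and 3 called lower in each pathway list, and Zap70, Lat, Cd28 and Trbc1, and 1 other gene of the rule is not reported here. Genes of the marker lists (Klf2, S1pr1, Klrb1c, Bst2, Xcr1, Clec9a, Lyz2, Areg, Rora, Il13, Il5, Sox13, Trdc, Il17a) and Ptprc were named after their values were seen. The members and the lists were chosen with earlier results of these data known. Alternatives covered scaling, filters, DESeq2 1.42.0, limma 3.58.1 voom, a replicate block, thinning to 592733 UMIs and leaving out each tumor. The procedure was tested on simulated data.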

Additional observations from a re-analysis of the deposited data

How the results depend on the processing

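Over the settings tried, no member other than Cd8a was called. The count of called members was 1 in place of 0 without the filter on low counts (Cd8a, log2 fold change 1.42, adjusted p = 0.00674), with the replicate number as a block (1.51, adjusted p = 0.0553) and without IP + LC replicate 1 (1.73), and it was 0 to 1 when each tumor was left out. The replicate block was an alternative only, because same-numbered tumors of the groups did not deviate together (r = 0.03, -0.12 and 0.11) and not every tumor correlated best with its own number, and it changed no other member's call. Signs turned for Trbc2 with library sizes only (0.083), without the filter (0.034), without LC replicate 2 (0.14) and without IP + LC replicate 1 (0.095), for Cd3d without LC replicate 3 (-0.09), for Cd3g without IP + LC replicate 1 (0.15) and for Lck without IP + LC replicate 3 (-0.14). Leaving out each tumor gave -0.222 to 0.144 for Trbc2, -0.09 to 0.463 for Cd3d, -0.463 to 0.151 for Cd3g and -0.14 to 0.348 for Lck. Cd3e, Cd247, Trac, Cd8a and Cd8b1 kept their sign wherever they were tested, the last 2 with ranges of 0.86 to 1.73 and -0.47 to -0.04.

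Differentially expressed genes (DEGs) numbered 4088 over all tested genes, with 6233 under voom with sample quality weights and 2352 after thinning. Leaving out 1 tumor gave 2265 (without IP + LC replicate 2) to 6691 (without LC replicate 1), and the counts were 2585 without LC replicate 2 and 2660 without the first IP + LC tumor. With library sizes only, 58.3% of calls were higher in place of 46.1%, and the median of all genes shifted to 0.18. The difference in the CD8 share of coreceptor UMIs, 0.811 points, was 26.5 when Cd8a was set against Cd4 alone, since LC replicate 1 had 0 UMIs of Cd8a, and it ran from -5.13 to 6.37 when each tumor was left out. The Cd8a share of CD8 UMIs was added after seeing the data, and its difference stayed between 17.4 and 34.6 points when each tumor was left out. Other causes were not tested.

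Depth limits most of these values. A tumor held 110 to 459 UMIs of the 10 genes together, single members often fewer than 20, and 4 of the 9 tested members fell below the filter once the tumors were thinned to equal depth.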

Other observations

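Several genes of activated T cells did not pass the filter on low counts in the fit of all 6 tumors, and their values were looked at after the fact. Ifng, the main cytokine of cytotoxic and type 1 helper T cells and of NK cells, had 0 UMIs in all 3 LC tumors and 8, 14 and 11 UMIs in IP + LC replicates 1 to 3, a level at least 2.18-fold higher than 3 UMIs per LC library (exact two-sided permutation test on log2(CPM + 4), p = 0.1, the smallest that 3 against 3 tumors can give). Tnf, another cytokine that T cells and macrophages make, had 0, 3 and 0 UMIs in LC tumors and 8, 13 and 12 UMIs in IP + LC tumors. Tnfrsf4 (OX40), a receptor induced on activated T cells, had 3, 2 and 1 UMIs in LC tumors and 8, 23 and 17 UMIs in IP + LC tumors. Ctla4, an inhibitory receptor of activated and regulatory T cells, had 0, 3 and 1 UMIs in LC tumors and 6, 19 and 12 UMIs in IP + LC tumors. Each of these 4 genes was higher in every IP + LC tumor than in every LC tumor. Over all tested genes, 43.1% had no overlap between the groups either. Ctla4 in IP + LC replicate 1 (4.35 CPM) lay below the level that 3 UMIs equaled in LC replicate 1 (5.17 CPM). Ifng and Tnf came from the list of TCR-induced genes. Of its 7 tested genes, 0 were called higher, 2 were called lower and 5 did not pass. Fitted by edgeR without the filter, the 4 genes had adjusted p-values of 0.000111 (Ifng), 0.00948 (Tnf), 0.00366 (Tnfrsf4) and 0.00902 (Ctla4), but they were picked after their values were seen, so these p-values are a description only. With the filter they were tested in some of the settings that leave out 1 tumor, where only the IP + LC tumors carried them past it, and those fits are not used. Foxp3, the factor that defines regulatory T cells, overlapped with 1, 1 and 2 UMIs in LC tumors and 1, 5 and 5 UMIs in IP + LC tumors (adjusted p = 0.591 without the filter).

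Trdc, the constant gene of the TCR delta chain, had 0, 2 and 1 UMIs in LC tumors and 5, 8 and 5 UMIs in IP + LC tumors (adjusted p = 0.219 without the filter). The gamma constant genes did not follow it: Tcrg-C1 had 1, 3 and 1 UMIs in LC tumors and 2, 1 and 2 in IP + LC tumors, and Tcrg-C2 had 2, 4 and 2 in LC tumors and 3, 2 and 8 in IP + LC tumors. The 33 variable and joining segments of TCR genes with a row summed to 2, 11 and 26 UMIs in LC tumors and 6, 9 and 5 UMIs in IP + LC tumors, and the groups overlapped.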
